A study of Rattus norvegicus with 4 samples.

Results

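The genes described here are the receptors and signals that control lipolysis in adipocytes, measured in retroperitoneal white fat of obese and lean rats. A list of 9 genes was taken by role, namely adrenergic, natriuretic, adenosine and hydroxycarboxylic acid receptors and their cyclic AMP partners, and a gene was measured where a row of the array carried its symbol and no other. That held for 8 of the 9 genes, of 14506 genes measured in all, and each of the 8 had a single row, so no choice between rows was needed. Hcar1, the lactate receptor, was not analysed here. The rats were untreated males of the WNIN/Ob strain, 4 months old, 2 with the obese and 2 with the lean phenotype, and each gave 1 sample of this visceral depot for 1 Affymetrix Rat Gene ST array. The labels give a phenotype but no genotype, so the alleles carried by either group are not stated in the sources used here.

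Lipolysis, the release of fatty acids from stored triglyceride, is set in adipocytes mainly by cyclic AMP. Catecholamines bind beta-adrenergic receptors, which act through the stimulatory G protein on adenylyl cyclase, and cyclic AMP then releases the catalytic subunits of protein kinase A, which phosphorylate perilipin and hormone-sensitive lipase. Alpha-2 adrenergic, adenosine A1 and hydroxycarboxylic acid receptors act through inhibitory G proteins and lower cyclic AMP, whereas the natriuretic peptide receptor Npr1 is itself a guanylyl cyclase that makes cyclic GMP.

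Among the 8 genes, the widest differences between obese and lean fat were in a pair of receptors, with opposite signs. Neither receptor passed the test over all genes. Adrb3, the main beta-adrenergic receptor of rodent adipocytes, was 3.04-fold dimmer in the obese rats, a log2 difference (obese minus lean, as throughout) of -1.60 ± 0.30 (SE, n = 2 per group). Adora1, the antilipolytic adenosine A1 receptor, was 2.09-fold brighter, a log2 difference of 1.06 ± 0.30. Hcar2, the antilipolytic receptor for niacin and beta-hydroxybutyrate, was at -0.73 ± 0.27. Adrb1, Npr1, Adra2a, Adcy6 and Prkar2b lay between -0.21 and 0.58, and the limma 95% interval of each included 0. None of the 8 genes passed an adjusted p of 0.05 in limma's test over all genes, where 0.841% of 14506 genes passed, 0.772% higher and 0.0689% lower. At an unadjusted p under 0.05 there were 3 of the 8, Adrb3 and Hcar2 lower and Adora1 higher, against 15.3% of all genes.

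The other cell types in these samples differed between rats. Skeletal muscle markers had a mean log2 intensity of 5.51 and 5.21 in the obese rats, 10.82 in lean rat 1 and 5.48 in lean rat 2, over 15 of 18 markers measured, so lean rat 1 stood apart. Differences with it left out are given for the 8 lipolysis genes. They are also given for each named pathway gene whose call or sign changed when a rat was left out. A fit with a rat left out leaves a group with a single rat. More genes pass in it than in the fit of all 4 rats, so its calls carry little weight. Without lean rat 1 the lean group is lean rat 2 alone, whose array stood apart in another way. Its log2 values had an interquartile range of 2.24, against 2.63 in lean rat 1 and 2.77 and 2.76 in the obese rats. Over genes, the lean rats had a Pearson correlation of 0.937 with each other, and the obese rats 0.984. Macrophage markers averaged 9.21 and 8.67 in the obese rats against 7.38 and 7.52 in the lean rats, and 4 of 15 rose. Adipocyte markers averaged 10.46 and 10.74 in the obese rats against 10.23 and 10.24 in the lean rats, with none of 17 passing, and the defining marker Adipoq was bright on every array (11.86 to 12.29). Adrenal tissue lies beside this depot, and 10 of 12 adrenal markers measured averaged 4.72 and 4.96 in the obese rats against 4.72 and 4.86 in the lean rats. Of these 1 rose, Star, the cholesterol carrier of steroid synthesis, with 7.69 and 7.49 in the obese rats against 5.33 and 5.77 in the lean rats (2.04 ± 0.28, limma adjusted p 0.025). Mc2r, the corticotropin receptor, which rodent adipocytes also carry, was bright on every array (8.41 to 10.66), at a difference of -0.97 ± 0.55 (adjusted p 0.442). The adrenal enzyme Cyp11b1 was between 2.91 and 3.17 on all arrays, which is under the median log2 intensity (3.16 to 3.86) of 1239 odour and pheromone receptor genes, olfactory and vomeronasal, which serve here as a background level. The part of muscle, macrophage and adrenal RNA in the results was not tested. In bulk tissue fewer cells of a type and less RNA per cell cannot be told apart.

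**Figure D1:**
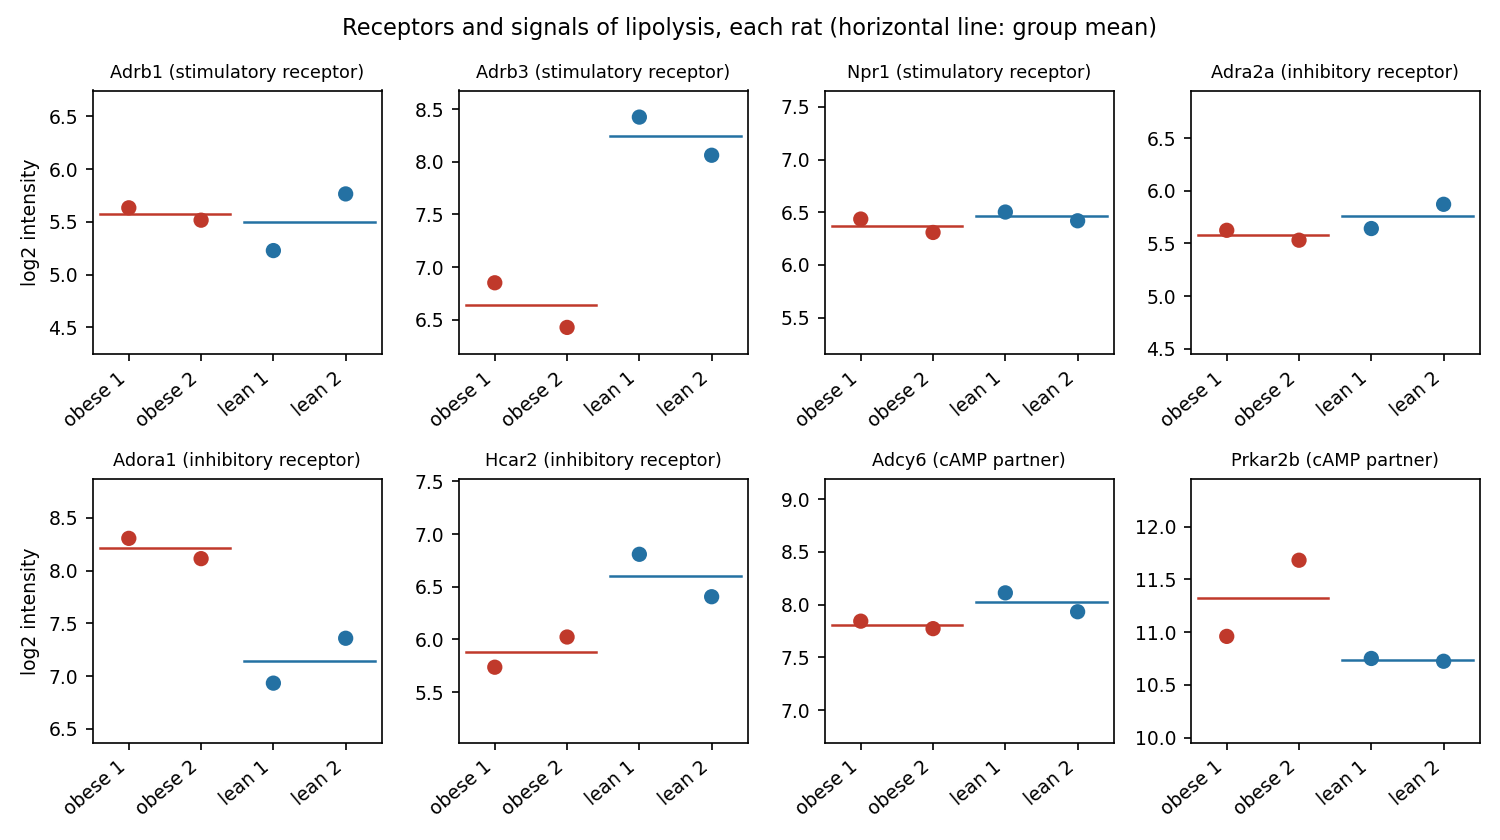
Log2 intensity (y axis, each panel spanning the same range) of the 8 genes in each rat (points), obese rats in red and lean rats in blue, with the group mean as a horizontal line. The 2 obese rats lie clearly below the lean rats for Adrb3 and clearly above them for Adora1. For Hcar2 they lie below by 0.38, less than the 0.40 between the lean rats. The groups of Adra2a, Adcy6 and Prkar2b do not overlap either, by narrower margins, while the points of Adrb1 and Npr1 interleave.

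Among the stimulatory receptors, Adrb3 had a log2 intensity of 6.85 and 6.43 in the obese rats, against 8.42 and 8.06 in the lean rats. On the linear scale these were intensities of 115 and 86.1 in the obese rats and 343 and 267 in the lean rats. Both obese rats lay more than 1 log2 unit below either lean rat, and the gap between the groups exceeded the spread within either (SD 0.30 for obese, 0.26 for lean). The difference of -1.60 is 3.04-fold lower in the obese rats, with a 95% interval of -2.31 to -0.90 on the log2 scale. Only 0.745% of all genes had a more negative difference. The limma adjusted p was nevertheless 0.067, just over the threshold, and over 15 other ways of processing it ran from 0.0012 to 0.203. Leaving out lean rat 1 gave a difference of -1.42, and leaving out lean rat 2 gave -1.78. Leaving out obese rat 1 gave -1.81, and leaving out obese rat 2 gave -1.39. Each of these fits leaves a group with a single rat. The value without lean rat 1 is the one free of the sample with bright muscle markers. It has lean rat 2 as its only lean rat. The smallest p that exact two-sided permutation allows for 1 gene in this design is 0.333, so every p here draws on limma's pooling of the spread over genes.

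Adrb1, the beta-adrenergic receptor best known from the heart and present in adipocytes too, had a log2 intensity of 5.63 and 5.52 in the obese rats, against 5.23 and 5.77 in the lean rats. The obese rats lay between the lean ones, at a difference of 0.078 ± 0.27 with a 95% interval of -0.53 to 0.69. Its sign turned to -0.19 without lean rat 1. Adrb1 was close to background, above 97.0% to 99.0% of the 1239 olfactory and vomeronasal receptor genes on each array, so its values limit what could be seen. Npr1, the receptor for atrial and brain natriuretic peptides, had 6.44 and 6.31 in the obese rats, against 6.50 and 6.42 in the lean rats. These groups overlapped, the difference was -0.089 ± 0.25, and the interval of -0.67 to 0.49 holds no change as large as that of Adrb3. When arrays were centred on their medians the sign of Npr1 turned (0.0098).

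Among the inhibitory receptors, Adora1 had a log2 intensity of 8.31 and 8.11 in the obese rats, against 6.93 and 7.36 in the lean rats. Neither lean rat reached either obese rat, and the smallest gap between a lean and an obese rat was wider than the spread in either group (SD 0.14 for obese, 0.30 for lean). As intensities these were 317 and 277 in the obese rats, against 122 and 164 in the lean rats. The 95% interval was 0.37 to 1.76, the adjusted p 0.176, and 96.1% of genes had a lower difference. With a rat left out the difference ran from 0.85, without lean rat 1, to 1.28, without lean rat 2, and it did not pass under any of the 15 alternatives (adjusted p from 0.078 to 0.746).

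Hcar2 had a log2 intensity of 5.74 and 6.02 in the obese rats, against 6.81 and 6.41 in the lean rats. Both obese rats were the lower ones, though the lean rats differed from each other by 0.40 and the nearest obese and lean rat by 0.38. The 95% interval was -1.36 to -0.097 and the adjusted p 0.275, and the difference was -0.53 with lean rat 1 left out and -0.93 with lean rat 2 left out. Hcar2 is also known from macrophages and neutrophils, and its values were lower in the same rats whose macrophage markers were brighter. Which cells the Hcar2 signal came from was not tested. Adra2a, the antilipolytic alpha-2A adrenergic receptor, had 5.63 and 5.53 in the obese rats, against 5.64 and 5.87 in the lean rats. Like Adrb1, Adra2a was close to background, above 97.8% to 99.0% of the olfactory and vomeronasal receptor genes, which limits what could be seen. Both obese rats were below both lean rats by a narrow margin, at -0.18 ± 0.24 with an interval of -0.73 to 0.37. The 3 inhibitory receptors measured therefore did not share a direction.

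Of the cyclic AMP partners, Adcy6, an adenylyl cyclase that inhibitory G proteins and calcium restrain, had a log2 intensity of 7.84 and 7.77 in the obese rats, against 8.11 and 7.93 in the lean rats. The groups did not overlap, but the difference was only -0.21 ± 0.28 with an interval of -0.87 to 0.44. Prkar2b, the RII-beta regulatory subunit that holds protein kinase A inactive in adipocytes and neurons, had 10.96 and 11.68 in the obese rats, against 10.75 and 10.72 in the lean rats. Obese rat 2 stood above the other 3 rats, and obese rat 1 lay near the lean rats. The difference of 0.58 ± 0.35 (interval -0.22 to 1.39, adjusted p 0.463) leaned on that rat, at 0.22 when it was left out and 0.95 with obese rat 1 left out instead. With lean rat 1 left out, Prkar2b was at 0.60, Adcy6 at -0.12, Adra2a at -0.29 and Npr1 at -0.047, so none of these turned sign there.

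**Figure D2:**
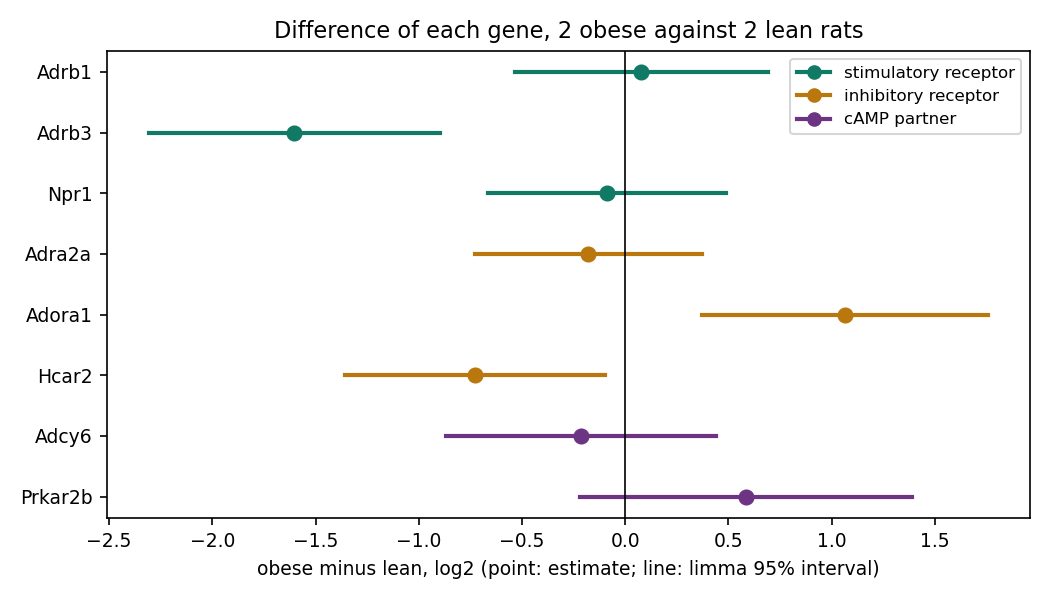
Difference of each gene on the log2 scale (x axis, obese minus lean, points) with limma's 95% interval (lines), coloured by role, 2 rats per group. The intervals of Adrb3 and Hcar2 lie below 0 and that of Adora1 above 0, and the other 5 include 0, although no adjusted p was under 0.05.

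In 2 of the 8 genes the obese rats were the brighter pair without overlap (26.4% of all genes), and in 4 they were the dimmer pair (21.3% of all genes), which makes 6 without overlap against 47.7% of all genes. The median difference of the 8 genes was -0.13, against 0.00047 for all genes tested. The opposite signs of Adrb3 and Adora1 held in each obese rat. Relative to the mean of the lean rats, the obese rats stood at -1.39 and -1.81 for Adrb3 and at 1.16 and 0.97 for Adora1. The change of Adrb3 minus that of Adora1 was therefore -2.55 and -2.78 in the obese rats, against 0.39 and -0.39 in the lean rats, a description of genes chosen after their values were seen.

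Adrb3 and Hcar2 were also set against the adipocyte markers by centring each array on their mean, which lowers every difference by the same amount and moves the median of all genes to -0.37. On that scale Adrb3 was at -1.97 (adjusted p 0.0012), Hcar2 at -1.09 (adjusted p 0.047) and Adora1 at 0.70 (adjusted p 0.291), in limma. Relative to the median of all genes these differences are as on the uncentred scale. The centring changes the balance of all genes that passed from 91.8% higher of 122 to 21.7% higher of 943, so its calls depend on taking the adipocyte markers as constant.

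**Figure D3:**
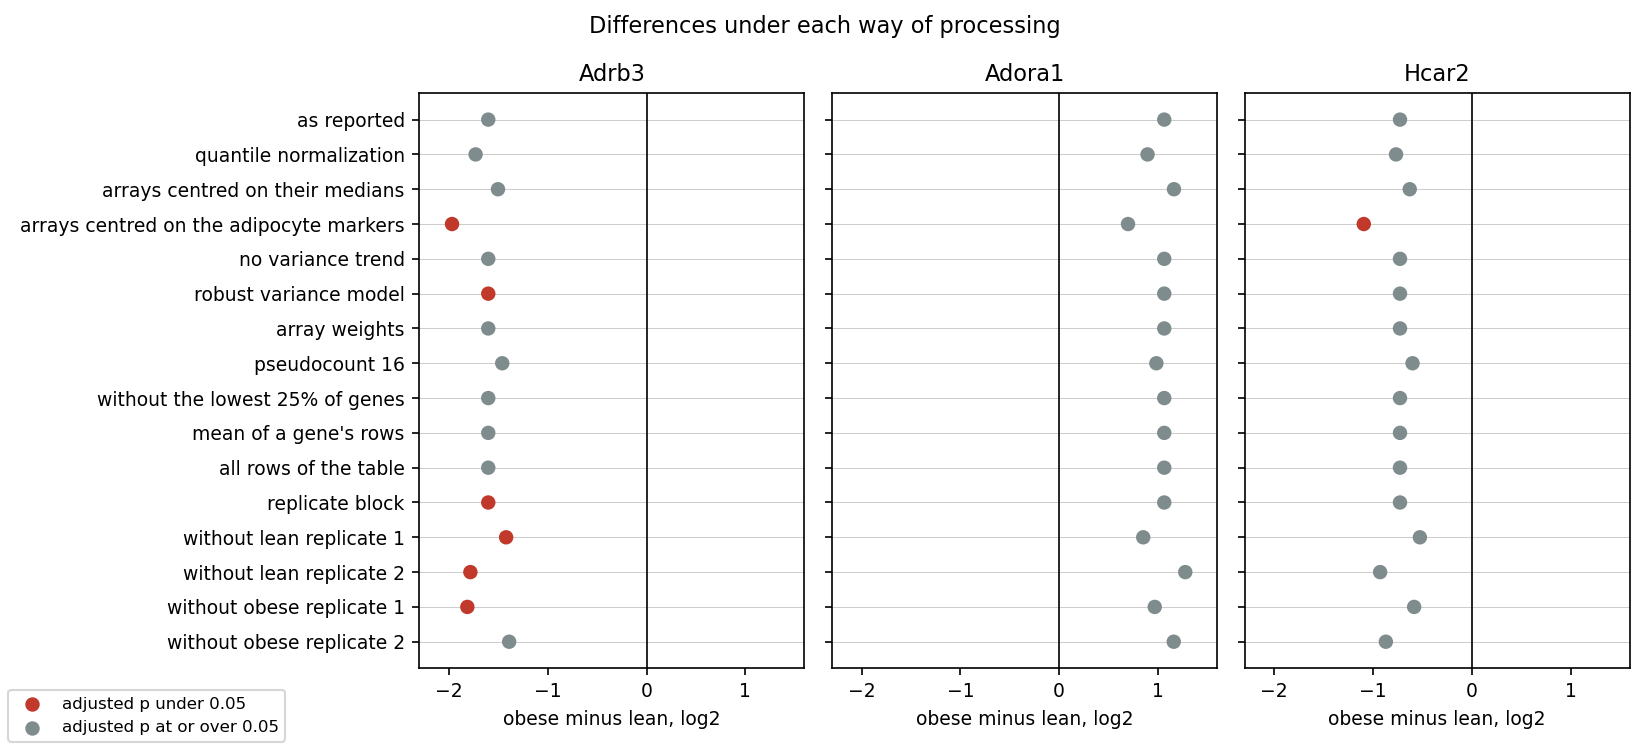
Difference of Adrb3, Adora1 and Hcar2 (x axis, obese minus lean, log2) under each way of processing (rows), red where the limma adjusted p was under 0.05. Adrb3 stays between -1.97 and -1.39 and passes in 6 of 15 alternatives, Adora1 stays above 0 and passes in none, and Hcar2 stays below 0 and passes in 1. Adrb3 passes in fits with a rat left out, with the rat number as a block, on adipocyte centring and in the robust variance model. Hcar2 passes on adipocyte centring. Fits with a rat left out leave a group with a single rat, and the block fit has 1 residual degree of freedom.

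RefSeq promoter windows, from 250 bases before to 50 bases after the annotated start on build GRCr8, were found for 6 of the 9 genes, and Adrb3, Hcar2 and Adcy6 were not among them. The windows of Adora1, the gene with the highest difference of the 8, and of Adrb1, a beta-receptor whose groups overlapped, are shown 5′ to 3′. The sequence at the start of a receptor gene without overlap between groups can so be read beside that of one with overlap. Capitals mark matches, on either strand, to the cyclic AMP response element TGACGTCA or its core TGACG, which lies within it, the GC box GGGCGG, the E-box CANNTG, the TATA box TATAAA and the nuclear receptor half-site AGGTCA.
Adora1 (chr13:48246782-48247081, minus strand): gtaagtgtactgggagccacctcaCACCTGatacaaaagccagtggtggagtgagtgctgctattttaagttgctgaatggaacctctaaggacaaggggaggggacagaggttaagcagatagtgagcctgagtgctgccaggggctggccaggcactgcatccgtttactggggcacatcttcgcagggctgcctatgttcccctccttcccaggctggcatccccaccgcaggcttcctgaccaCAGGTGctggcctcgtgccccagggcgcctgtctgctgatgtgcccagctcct
Adrb1 (chr1:265776853-265777152, plus strand): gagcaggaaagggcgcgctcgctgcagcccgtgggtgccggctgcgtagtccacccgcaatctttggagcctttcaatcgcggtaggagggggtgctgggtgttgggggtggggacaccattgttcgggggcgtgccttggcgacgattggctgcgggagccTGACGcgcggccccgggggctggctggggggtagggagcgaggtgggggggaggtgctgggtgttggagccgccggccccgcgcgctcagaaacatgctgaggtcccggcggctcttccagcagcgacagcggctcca
The Adora1 window held 2 E-boxes and no other match, and an E-box was present in 72.1% of 33469 promoter windows of that length. The Adrb1 window held 1 cyclic AMP response element core, present in 21.2% of windows, and no full element, present in 1.83%. GC content was 59% for Adora1 with 5 CpG dinucleotides, against 70.7% for Adrb1 with 28, where the median window had 51.7%. A match is a string of letters and not a shown binding site.

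Around these genes, 104 of 109 other genes of the pathway were measured, grouped into 12 lists by role. None passed limma's test over all genes (0.841% of all genes did), and 17 had an unadjusted p under 0.05, 6 higher and 11 lower, against 15.3% of all genes, 9.93% higher and 5.33% lower. Their median difference was -0.016.

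Of 11 other receptors that act through the stimulatory G protein or bind natriuretic peptides, none passed and 3 had an unadjusted p under 0.05, all higher, with a list median of 0.033. Sctr, the secretin receptor, had a log2 intensity of 6.54 and 6.09 in the obese rats, against 4.95 and 5.07 in the lean rats. Its difference of 1.30 ± 0.26 (adjusted p 0.074) had no overlap between groups, and both lean values were near background. It passed when lean rat 1 was left out (1.24, adjusted p 0.049) or obese rat 2 (1.53, adjusted p 0.036). Mc5r, a melanocortin receptor, had 5.70 and 7.04 in the obese rats, against 5.14 and 5.16 in the lean rats, so its difference of 1.22 ± 0.41 leaned on obese rat 2. Its lean values were near background, above 96.4% and 91.7% of the olfactory and vomeronasal receptor genes. Without obese rat 1 Mc5r passed (1.89, adjusted p 0.0052), without obese rat 2 it was at 0.55, and with lean rat 1 left out it was at 1.21.

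Of 6 other receptors that act through inhibitory G proteins, none passed, and the list median was -0.055. Npy1r, the Y1 receptor for neuropeptide Y, which lowers cyclic AMP, had a log2 intensity of 5.89 and 6.28 in the obese rats, against 7.74 and 7.10 in the lean rats. Both obese rats were below both lean rats, at -1.33 ± 0.32 (adjusted p 0.118), and without lean rat 2 it passed (-1.65, adjusted p 0.034). With lean rat 1 left out Npy1r was at -1.02 (adjusted p 0.066). Ffar2, a receptor for short-chain fatty acids, was at 0.66 ± 0.29, with 6.02 and 5.34 in the obese rats, against 4.87 and 5.17 in the lean rats. Its lean values were near background, above 94.2% and 91.8% of the olfactory and vomeronasal receptor genes. The 3 alpha-1 adrenergic receptors, which act through Gq, lay between -0.28 (Adra1a) and 0.024 (Adra1d), and Adra1d was below 0 when lean rat 1 (-0.055) or obese rat 1 (-0.16) was left out.

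Downstream of the receptors, the 8 G protein alpha subunits had a median of 0.18 and none an unadjusted p under 0.05. Gna11 was at 0.48 ± 0.27, Gnao1 at 0.41 ± 0.30 and Gnas, the stimulatory subunit itself, at 0.092 ± 0.32, with a sign that turned when lean rat 2 (-0.017) or obese rat 2 (-0.12) was left out and with quantile normalization (-0.026), though not when lean rat 1 was (0.20). Of 7 other adenylyl cyclases none passed. Adcy2 had a log2 intensity of 5.10 and 4.80 in the obese rats, against 6.27 and 5.91 in the lean rats, a difference of -1.14 ± 0.25 (adjusted p 0.101) that passed without lean rat 2 (-1.32, adjusted p 0.037) and was -0.96 (adjusted p 0.054) with lean rat 1 left out. Adcy5, like Adcy6 a cyclase that calcium restrains, had 7.39 and 7.89 in the obese rats, against 6.96 and 6.63 in the lean rats, a difference of 0.85 ± 0.31 (adjusted p 0.262), or 1.02 with lean rat 1 left out. The groups of Adcy2 and of Adcy5 did not overlap and their differences had opposite signs. Adcy2 was close to background in the obese rats, above 97.4% and 95.9% of the olfactory and vomeronasal receptor genes.

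Among 8 other subunits and inhibitors of protein kinase A, Prkar1a, the RI-alpha regulatory subunit, was at 0.71 ± 0.37 and Pkib, an inhibitor peptide gene near background, at -0.70 ± 0.28, while the catalytic subunit Prkaca was at -0.076 ± 0.29 (0.022 without obese rat 1, -0.15 with lean rat 1 left out). The list's median was 0.20. Pkia, another inhibitor peptide gene, had 8.36 and 8.25 in the obese rats, against 9.07 in lean rat 1 and 6.43 in lean rat 2. Its groups overlapped, at 0.56 ± 0.72 (adjusted p 0.756). The value turned on which lean rat was kept, since it passed with lean rat 1 left out (1.87, adjusted p 0.030) and had the opposite sign with lean rat 2 left out (-0.76, adjusted p 0.263). Of 10 anchoring proteins, which place protein kinase A near its substrates, 3 had an unadjusted p under 0.05, all lower, at a list median of -0.18. Akap12 had 6.76 and 7.71 in the obese rats, against 8.33 and 8.74 in the lean rats, at -1.31 ± 0.38 (adjusted p 0.189), and passed without obese rat 2 (-1.78, adjusted p 0.038). With lean rat 1 left out Akap12 was at -1.51 (adjusted p 0.075). Akap5 was at -0.85 ± 0.26, or -0.66 with that rat left out. Akap5 was near background, above 64.1% and 77.9% of the olfactory and vomeronasal receptor genes in the obese rats. In the lean rats it was above 92.4% and 70.3% of them. The median of those receptor genes was also lower in the obese rats, at 3.16 and 3.16 against 3.38 and 3.86. With quantile normalization Akap5 was at -0.62 and Pkib at -0.50. Akap6, an anchoring protein of striated muscle, had a log2 intensity of 3.68 and 4.52 in the obese rats. It had 6.17 in lean rat 1, the rat with bright muscle markers, and 4.62 in lean rat 2. Akap6 was near background in the obese rats (above 71.9% and 93.2% of those receptor genes) and in lean rat 2 (78.5%). Its difference of -1.29 ± 0.49 (adjusted p 0.279) passed with lean rat 2 left out (-2.06, adjusted p 0.036) or obese rat 2 (-1.71, adjusted p 0.0079), and was -0.52 (adjusted p 0.341) with lean rat 1 left out.

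Phosphodiesterases end the signal by breaking down cyclic AMP or cyclic GMP. Of 18 measured none passed, and 3 had an unadjusted p under 0.05, all lower, with a median of -0.14. Pde1a was at -0.87 ± 0.23 (adjusted p 0.153), with a log2 intensity of 4.51 and 4.44 in the obese rats, against 5.51 and 5.19 in the lean rats, and passed without lean rat 2 (-1.04, adjusted p 0.047). With lean rat 1 left out Pde1a was at -0.71. Pde1a was near background, above 93.0% and 91.5% of the olfactory and vomeronasal receptor genes in the obese rats. In the lean rats it was above 98.3% and 91.9% of them. Pde4d was at -0.91 ± 0.31 (-0.72 with lean rat 1 left out), with 6.21 and 6.75 in the obese rats, against 7.58 and 7.20 in the lean rats. Pde3b, the enzyme through which insulin restrains lipolysis, was at 0.29 ± 0.33, with 8.77 and 9.12 in the obese rats, against 8.90 and 8.41 in the lean rats. The cyclic GMP arm holds natriuretic peptides, soluble guanylyl cyclase and protein kinase G. All 7 of its genes overlapped between groups, as did 7583 of all 14506 genes. Nppb, which was near background, was at -0.30 ± 0.25 and Prkg1 at -0.32 ± 0.31. Prkg1 was at 0.091 without lean rat 1.

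Of 6 receptor kinases and arrestins, which uncouple activated receptors, 4 had the obese rats as the brighter pair without overlap, where 26.4% of all genes had that order. Arrb1, beta-arrestin 1, had a log2 intensity of 8.65 and 8.59 in the obese rats, against 7.14 and 7.39 in the lean rats. Both obese rats lay over 1 log2 unit above either lean rat, at 1.35 ± 0.29, and the adjusted p was 0.089, from 0.0503 to 0.328 with a rat left out. Arrestins are also abundant in leukocytes, and the macrophage markers were brighter in the same rats. The part of leukocyte RNA in the Arrb1 difference was not tested. Grk2, which phosphorylates active beta-adrenergic receptors, was at 0.59 ± 0.29. Among the 9 lipolytic effectors none passed and the median was 0.26. Mgll, the monoglyceride lipase, was at 1.28 ± 0.33 (1.03 with lean rat 1 left out), with 11.09 and 11.25 in the obese rats, against 9.65 and 10.14 in the lean rats, and Abhd5, the co-activator of adipose triglyceride lipase, was at 0.62 ± 0.30. Of the lipases that protein kinase A signalling acts on, Lipe, the hormone-sensitive lipase, was at -0.030 ± 0.31 (above 0 with lean rat 1 left out, 0.10, or obese rat 2, 0.078), and Pnpla2, the adipose triglyceride lipase, was at 0.25 ± 0.34 (-0.080 without obese rat 2, 0.18 with lean rat 1 left out). The droplet coat gene Plin1 was at 0.26 ± 0.31.

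Of 11 genes of the list of cyclic AMP targets and their regulators, none passed at a list median of 0.25, and 2 had an unadjusted p under 0.05, both lower and both orphan nuclear receptors. Nr4a1 had a log2 intensity of 5.57 and 5.66 in the obese rats, against 7.81 in lean rat 1 and 6.09 in lean rat 2. Its difference of -1.33 ± 0.50 passed when lean rat 2 was left out (-2.19, adjusted p 0.0068), and was -0.47 with lean rat 1 left out. Nr4a3 had 4.54 and 4.83 in the obese rats, against 5.64 and 5.43 in the lean rats, at -0.85 ± 0.24 (adjusted p 0.174). It was close to background, above 93.3% to 98.9% of the olfactory and vomeronasal receptor genes on each array. Ppargc1a and Ucp1, both induced by cold and beta-adrenergic stimulation in brown fat, overlapped between groups and were brightest in lean rat 1. Ppargc1a had 3.94 and 3.55 in the obese rats, against 5.34 and 3.26 in the lean rats, at -0.56 ± 0.58 (adjusted p 0.689). Outside lean rat 1, the rat with bright muscle markers, Ppargc1a was near background, above 27.0% to 80.2% of the olfactory and vomeronasal receptor genes. It passed with lean rat 2 left out (-1.60, adjusted p 0.023) and turned sign with lean rat 1 left out (0.48, adjusted p 0.206). Ucp1 had 5.90 and 4.17 in the obese rats, against 6.89 and 4.97 in the lean rats, at -0.89 ± 0.69 (adjusted p 0.573). In obese rat 2 and lean rat 2 it was near background, above 86.4% and 87.2% of the olfactory and vomeronasal receptor genes. It passed with obese rat 1 left out (-1.76, adjusted p 0.0090), was -0.030 with obese rat 2 left out, and turned sign with lean rat 1 left out (0.062, adjusted p 0.956). The calls of both genes thus rested on which rat was left out.

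**Figure D4:**
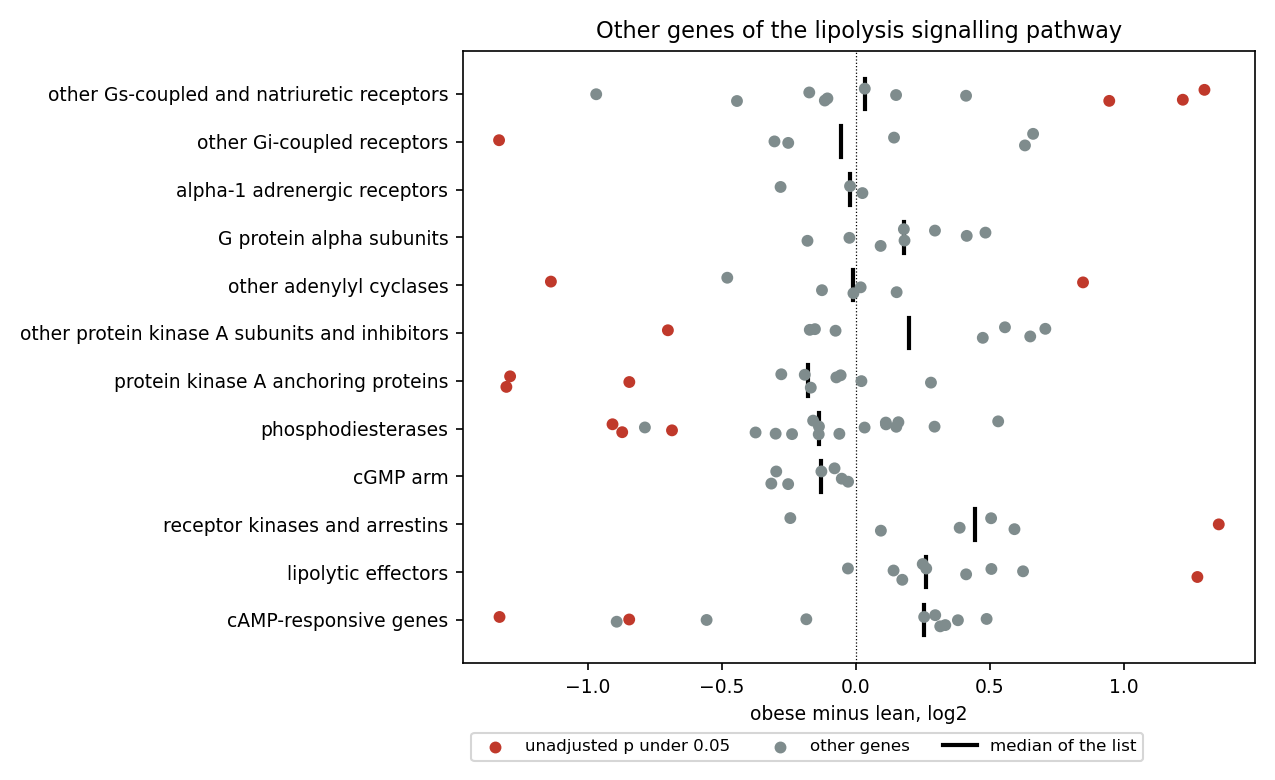
Difference (x axis, obese minus lean, log2) of 104 other pathway genes (points) in 12 lists by role (rows), red where the unadjusted p was under 0.05, with a black bar at each list's median. Points at unadjusted p under 0.05 lie on both sides of 0, 6 above and 11 below, and no gene passed after adjustment.

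The genes whose pattern over the 4 arrays was most like that of Adrb3, by the Euclidean distance between log2 values centred on each gene's own mean, were Sytl5 (0.33), Amy1 (0.43) and Or4a81 (0.44). Sytl5, a synaptotagmin-like gene, had a log2 intensity of 3.88 and 3.81 in the obese rats, against 5.44 and 5.01 in the lean rats, a difference of -1.38 ± 0.24. Amy1, an amylase gene with close relatives that can share probes, was at -1.53 ± 0.31 and the olfactory receptor gene Or4a81 at -1.29 ± 0.23. With quantile normalization Sytl5 was at -1.19, Amy1 at -1.34 and Or4a81 at -1.08, while Adrb3 was at -1.73. The median of the olfactory and vomeronasal receptor genes was also lower in the obese rats, at 3.16 and 3.16 against 3.38 and 3.86. In the obese rats these 3 genes lay between 2.48 and 3.88, within the range of the olfactory and vomeronasal receptor genes, whereas Adrb3 was above 99.8% of those genes on both arrays. Each passed with some rat left out, Sytl5 with lean rat 1 left out (-1.17, adjusted p 0.033) or lean rat 2 (-1.60, adjusted p 0.010), Or4a81 without the same rats (-1.32, adjusted p 0.035, and -1.26, adjusted p 0.041), and Amy1 with lean rat 1 left out (-1.11, adjusted p 0.038), lean rat 2 (-1.95, adjusted p 0.0057) or obese rat 1 (-1.57, adjusted p 0.040). Likeness over 4 arrays is a description with no test.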

How the data were processed

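Fat from the retroperitoneal depot was frozen and 500 mg per rat extracted with Trizol, and 100 ng of RNA was amplified, per the labels' protocols. The authors deposited linear intensity, not log values, for each row of each array, made with RMA per the submitters' processing notes. Software, version and genome build are not given there. As usually run, RMA includes background correction and quantile normalization, which reduce shifts common to most genes. The deposited arrays still differed from each other. Over all rows the interquartile range of log2 values was 2.77 and 2.76 in the obese rats, against 2.63 and 2.24 in the lean rats. The median intensity was 39.9 in each obese rat, 41.0 in lean rat 1 and 44.5 in lean rat 2. The median of the olfactory and vomeronasal receptor genes was lower in the obese rats, at 3.16 and 3.16 against 3.38 and 3.86.

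Intensities were taken to log2 with no pseudocount. Of 29214 rows, 15310 had 1 symbol in the platform annotation, 323 several and 13581 none, and the row with the highest mean was kept for each of 14506 genes. Obese and lean rats were compared in limma 3.58.1 (R 4.3.3) with lmFit and trended eBayes over all genes and 4 arrays, with no covariates and Benjamini-Hochberg adjustment at 0.05. Nothing says more of the replicates than that each is a rat. Arrays give no depth, and their number limits the precision. The procedure was tested on simulated data. Figures were drawn with matplotlib 3.10.9.

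The members, lists and tests were chosen with earlier results of these data known. Named genes are the members, the 2 pathway genes of smallest p in each list, and the 3 genes most like Adrb3. Gnas, Prkaca, Pde3b, Lipe, Pnpla2 and Plin1 were added for their roles, and Pkia, Akap6, Ppargc1a and Ucp1 because a call changed, after their values were seen. The alternatives were quantile normalization, centring on array medians or on adipocyte markers, other variance models, array weights, a pseudocount of 16, a filter on the lowest 25% of genes, averaged rows per gene, the whole table with unnamed rows, the rat number as a block and each rat left out. Endothelial, blood, mesothelial and brown adipocyte markers were measured as well. They averaged 7.18, 8.87, 4.87 and 4.29 in obese rat 1, and 7.18, 7.34, 4.90 and 3.97 in obese rat 2. In lean rat 1 they averaged 7.47, 9.08, 6.67 and 5.23, and in lean rat 2 they averaged 7.47, 9.78, 5.40 and 3.93.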

Additional observations from a re-analysis of the deposited data

How the results depend on the processing

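With a rat left out, fits rest on 3 arrays and 1 residual degree of freedom, and where an obese or a lean rat stands alone it is assumed to vary like the other group. The count of all genes passing, 122, was then 268 to 1081, that of the 8 lipolysis genes 0 to 1 (Adrb3) and that of the 104 pathway genes 2 to 6, while the median of the 8 ran from -0.19 to -0.078. All genes passing were 75 with quantile normalization, 943 with adipocyte centring, 262 with the robust variance model and 185 over all rows. Adipocyte centring passed 2 of the 8 (Adrb3, Hcar2) at a median of -0.50, and 12 pathway genes, the robust model 1 of each (Adrb3, Sctr). The rat number shows no pairing (correlation of deviations 0.020 over genes), and with it as a block 327 genes passed, 1 of the 8 (Adrb3, adjusted p 0.033) and 1 pathway gene (Sctr, 0.045). The block fit also has 1 residual degree of freedom, so its calls carry little weight.

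Some signs turned. On median centring these were Npr1 (0.0098), Prkaca (0.022) and Lipe (0.068), and with quantile normalization Gnas (-0.026). On adipocyte centring they were Adrb1 (-0.29), Adra1d (-0.34), Gnas (-0.27), Pde3b (-0.073), Pnpla2 (-0.12) and Plin1 (-0.10). Without lean rat 1 they were Adrb1, Adra1d, Prkg1 (0.091), Lipe, Ppargc1a (0.48) and Ucp1 (0.062), without lean rat 2 Gnas and Pkia (-0.76), without obese rat 1 Adra1d and Prkaca, and without obese rat 2 Gnas, Lipe and Pnpla2. The values with a rat left out are -0.19 to 0.35 for Adrb1, -0.16 to 0.21 for Adra1d, -0.72 to 0.091 for Prkg1, -0.16 to 0.10 for Lipe, -0.17 to 0.022 for Prkaca, -0.12 to 0.30 for Gnas, -0.080 to 0.58 for Pnpla2, -1.60 to 0.48 for Ppargc1a, -1.85 to 0.062 for Ucp1 and -0.76 to 1.87 for Pkia. The cause was not tested. Pnpla2, Plin1 and Lipe are among the adipocyte markers, so adipocyte centring sets them against a mean that they help form. Adrb3, Adora1, Hcar2, Adra2a, Adcy6 and Prkar2b kept their sign in all 15 alternatives run. The filter on dim genes removed Pkib, Akap5, Nppb, Ppargc1a, Sytl5, Amy1 and Or4a81, which have no value there.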
